A study of Mus musculus with 11 samples.

Results

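The TGF-beta and BMP signaling genes of endothelium were followed here in retinal vascular endothelial cells sorted from mice in the oxygen-induced retinopathy (OIR) model. The list holds 10 genes by symbol: Eng, Acvrl1, Bmpr2, Tgfbr1, Tgfbr2, Smad6, Smad7, Id1, Id2 and Id3. All 10 were found among the 55359 genes of the count files, and all 10 passed the low-count filter of edgeR, which kept 13742 genes. In the OIR model, pups breathe high oxygen and then return to room air, after which pathological vessels grow into the hypoxic retina. All samples came from C57BL/6 mice in this model and differed in the intravitreal injection given at P12, either 0.5 µL of oncostatin M (OSM, a cytokine of the IL-6 family) at 100 ng/µL or 0.5 µL of PBS. At P17, living CD31+/CD45- cells were sorted, and each sample pooled the cells of both retinas of 1 mouse. OSM was given to 5 mice and PBS to 6 mice. They came from 3 litters, each used in 1 OIR experiment: litter 1 held OSM mice 1 and 2 and PBS mice 3 and 4, litter 2 held OSM mice 5 and 6 and PBS mice 7 and 8, and litter 3 held OSM mouse 9 and PBS mice 10 and 11. The methods mention PBS in contralateral eyes, and they leave unsaid whether a sequenced mouse had the same agent in its left and right eye, so an OSM sample may hold cells from a PBS eye.

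Ligands of the TGF-beta and BMP family bind pairs of type I and type II receptor kinases, which phosphorylate receptor Smads that enter the nucleus with Smad4. In endothelial cells, BMP9 and BMP10 from the blood act mainly through ALK1 (Acvrl1), the type II receptor BMPR2 and the co-receptor endoglin (Eng), and signal through Smad1, Smad5 and Smad9, whereas TGF-beta acts through TGFBR2 and ALK5 (Tgfbr1) and signals through Smad2 and Smad3. Inhibitory Smads (Smad6, Smad7) limit the signal, and the Id genes, which encode inhibitors of DNA binding by basic helix-loop-helix factors, are direct targets of the BMP branch. Loss of endoglin or ALK1 causes hereditary hemorrhagic telangiectasia, a disease of arteriovenous malformations.

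The sequence upstream of a transcription start is shown for 4 of these genes: Eng, Tgfbr2 and Smad6, 3 genes with large differences between litters, and Id1, a classical BMP target. The windows were read from GRCm39 and end at the base before the start of the canonical GENCODE transcript. They reach back 250 bases for Tgfbr2 and Id1, and were cut to 89 bases for Eng and 127 bases for Smad6, where exons of other transcripts of the same gene begin. Letters are given 5′ to 3′ along the gene, and capitals mark the Smad-binding letters CAGAC on either strand, which the Smad6 window does not hold.
Eng, chr2:32536451-32536539, plus strand: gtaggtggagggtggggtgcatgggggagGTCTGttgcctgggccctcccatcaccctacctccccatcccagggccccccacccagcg
Tgfbr2, chr9:116004801-116005050, minus strand: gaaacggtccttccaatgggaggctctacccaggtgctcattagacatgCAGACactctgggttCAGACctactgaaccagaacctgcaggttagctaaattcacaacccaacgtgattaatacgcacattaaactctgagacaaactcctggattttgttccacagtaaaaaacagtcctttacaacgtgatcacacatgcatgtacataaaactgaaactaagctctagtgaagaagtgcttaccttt
Smad6, chr9:63929412-63929538, minus strand: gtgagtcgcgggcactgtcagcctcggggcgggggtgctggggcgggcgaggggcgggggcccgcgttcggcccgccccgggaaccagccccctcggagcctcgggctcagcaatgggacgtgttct
Id1, chr2:152577915-152578164, plus strand: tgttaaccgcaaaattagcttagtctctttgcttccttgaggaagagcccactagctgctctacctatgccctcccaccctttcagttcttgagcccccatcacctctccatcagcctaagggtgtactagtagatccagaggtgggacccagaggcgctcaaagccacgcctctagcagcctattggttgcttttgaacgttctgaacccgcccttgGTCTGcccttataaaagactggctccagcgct

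The letters CAGAC were present on either strand in the 250 bases before the start of 6 of the 10 genes (Eng, Acvrl1, Tgfbr1, Tgfbr2, Id1 and Id3) and in 41.1% of the windows of the 11933 tested protein-coding genes. The GC-rich Smad letters GGCGCC were present for Bmpr2 and Tgfbr1, against 13.0% of these windows. The composite BMP response motif, in which a GC-rich site, a spacer and GTCT follow each other, was present for 0 of the 10 genes, against 0.31%. The STAT letters TTCNNNGAA were found for Eng alone, 215 bases before the start and inside an exon of another Eng transcript, against 6.54% of windows. The AP-1 letters TGANTCA were found for Acvrl1 alone, against 4.34%. The window of Tgfbr2 shares bases with exons of Gm4668, a long noncoding RNA on the other strand. Its GC content was 42.8%, and that of Smad6 over 250 bases was 71.2%, against a median of 56.8% over the tested genes. These matches are descriptions of letters in a window, and binding was not measured.

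The reads counted on genes numbered 26697990 to 56033479 per mouse (median 32500202). The label of the cells was checked against marker lists, in counts per 1000000 counted reads (CPM, scaled by TMM). The 10 endothelial markers summed to 12822 to 18195 CPM per mouse, and Pecam1, which encodes CD31, was at 1333 ± 267 CPM (SD, n = 11). The 8 leukocyte and microglia markers summed to at most 14.8 CPM, and Ptprc, which encodes CD45, had reads in 5 of 11 mice and at most 0.838 CPM. Transcripts of other cells were present at levels that varied between mice. The 7 rod markers summed to 158 to 4358 CPM, with the highest sum in OSM mouse 5, and the 5 Muller cell markers, of which 3 passed the filter, summed to 160 to 337 CPM. Most of the Muller sum was Glul, at 238 CPM on average. Rlbp1 averaged 13.1 CPM, Slc1a3 5.44 CPM, Aqp4 0.457 CPM and Kcnj10 0.396 CPM. The 4 platelet markers summed to 4.23 to 18.6 CPM. In bulk samples, fewer cells of a type and less RNA per cell cannot be told apart. Each sample is a separate mouse, so p-values rest on the spread between animals.

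The 10 genes covered a wide range of levels in the sorted cells. Levels between genes were compared per length as transcripts per 1000000 transcripts (TPM), with the union of GENCODE exons as the length. Id3 was highest at 2119 ± 242 TPM (SD, n = 11 mice), and it was above Id1 in 11 of 11 mice. Id1 followed at 687 ± 101 TPM and Eng at 611 ± 147 TPM. Id1 and Eng were close, with Id1 above Eng in 10 of 11 mice. Their mean log2 ratio of 0.19 was smaller than its SD between mice (0.30). Differences in level between genes were not tested. Acvrl1 at 366 ± 53.9 TPM, Tgfbr2 at 188 ± 61.2 TPM and Id2 at 88.2 ± 23.7 TPM came next, each below the preceding gene in 11 of 11 mice. The inhibitory Smads were lower, with Smad7 at 36.0 ± 14.5 TPM and Smad6 at 30.7 ± 17.9 TPM. The kinase receptors Bmpr2 at 15.03 ± 3.61 TPM and Tgfbr1 at 11.0 ± 6.90 TPM were lowest. Smad7 was above Smad6 in 7 of 11 mice, Smad6 above Bmpr2 in 9 and Bmpr2 above Tgfbr1 in 9. The mean log2 ratios of these 3 pairs were smaller than their SD between mice (0.39 ± 0.65, 0.81 ± 0.95 and 0.71 ± 0.99). With the canonical transcript as the length, Eng (749 TPM) and Acvrl1 (701 TPM) stood above Id1 (579 TPM), so the order of Eng, Acvrl1 and Id1 depends on the length used.

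**Figure D1:**
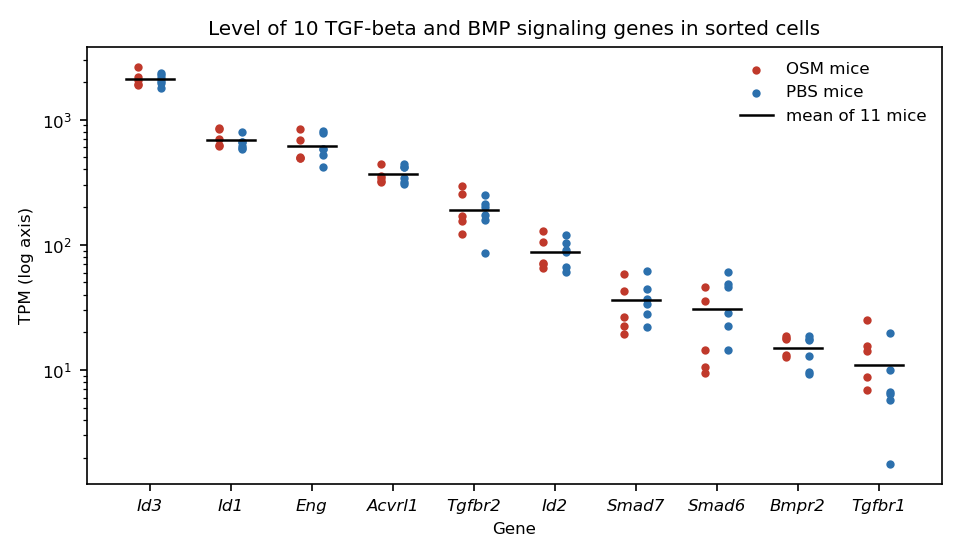
TPM (log axis) of the 10 genes in every mouse, ordered by the mean over 11 mice (bar), with OSM mice in red and PBS mice in blue. Id3 lies highest at 2119 TPM on average, Bmpr2 and Tgfbr1 lie lowest at 15.03 and 11.0 TPM, and OSM and PBS points overlap for every gene.

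The comparison of OSM with PBS asked whether endothelial expression at P17 differed after the injection at P12. Fold changes are log2 differences, OSM minus PBS, from the quasi-likelihood test of edgeR in a model of litter plus treatment, adjusted over the 13742 genes. None of the 10 genes passed an adjusted p of 0.05, and the adjusted p of each was 1.00. Over all genes tested, 0 (0%) passed, 573 (4.17%) had an unadjusted p under 0.05 and the lowest adjusted p was 0.811, while DESeq2 with the same terms called 168 genes (0.757%), none of them among the 10. With 5 genes higher and 5 lower after OSM, the split of the 10 was near that of all genes, of which 48.4% were higher. The median log2 difference of the 10 was 0.02, against -0.01 over all genes tested, and their median absolute difference was 0.15, against 0.22. Their median standard error was 0.18, against 0.32. The OSM and PBS mice overlapped for all 10 genes, and 0.488% of all genes did not overlap. The difference had the same sign in all 3 litters for 5 of 10 genes, against 24.9% of all genes.

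Among the receptors, Eng encodes endoglin, the co-receptor for BMP9 and BMP10 (ENSMUSG00000026814, chromosome 2 of GRCm39, 32535543 to 32574661, plus strand). Its level was 1167 and 1434 CPM in OSM mice 1 and 2, 914 and 912 CPM in OSM mice 5 and 6, and 917 CPM in OSM mouse 9. The PBS mice ranged from 769 to 1382 CPM with a median of 1002 CPM. High values of Eng belonged to litter 1 in both groups, and the groups overlapped. The log2 difference was -0.02 (SE 0.08, 95% confidence interval -0.19 to 0.16). As a ratio of OSM to PBS, this unadjusted interval runs from 0.874 to 1.11. Acvrl1, the type I receptor ALK1 (ENSMUSG00000000530, chromosome 15, 101025996 to 101043217, plus strand), had 588, 728, 565, 599 and 577 CPM in OSM mice 1, 2, 5, 6 and 9. PBS mice lay between 524 to 763 CPM with a median of 630.4 CPM. All mice lay in a narrow band, and the log2 difference was -0.08 (SE 0.10, interval -0.29 to 0.14). Eng and Acvrl1, the receptor pair of the BMP9 branch, had the smallest standard errors of the 10 genes.

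Bmpr2, a type II receptor (ENSMUSG00000067336, chromosome 1, 59802544 to 59918173, plus strand), had 69.4, 49.7, 79.8, 76.5 and 55.97 CPM in OSM mice 1, 2, 5, 6 and 9. PBS mice had from 39.7 to 74.8 CPM with a median of 59.3 CPM. The groups overlapped, but in litter 2 both OSM mice (79.8 and 76.5 CPM) were above both PBS mice (39.8 and 39.7 CPM). The log2 difference was 0.24 (SE 0.23, interval -0.27 to 0.74), and the values of litters 1, 2 and 3 were -0.28, 0.97 and -0.10. Without litter 2 the log2 difference was -0.20. The interaction test asked whether the OSM difference itself varied between litters. For Bmpr2 this test gave an unadjusted p of 0.0145 and an adjusted p of 0.539. It gave 0 calls (0%) over all genes, and 7.65% of all genes had an unadjusted p under 0.05.

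Tgfbr1, the type I receptor ALK5 (ENSMUSG00000007613, chromosome 4, 47353134 to 47414931, plus strand), had 20.5, 36.0, 13.7, 23.9 and 10.9 CPM in OSM mice 1, 2, 5, 6 and 9. The PBS mice had 14.7, 8.31, 10.1, 10.0, 29.2 and 2.55 CPM in mice 3, 4, 7, 8, 10 and 11. All OSM mice of litters 1 and 2 were above the PBS mice of their litter, and the PBS mice of litter 3 enclosed the OSM mouse. The log2 difference was 0.74 (SE 0.57, interval -0.53 to 2.01), the widest interval of the 10 genes, and the differences within litters were 1.26, 0.82 and 0.26. Without each mouse in turn the difference was 0.52 to 1.30. The highest value came without PBS mouse 10 (SE 0.34), with an unadjusted p of 0.0035 and an adjusted p of 1.00. Without litter 1 the difference was 0.36 (SE 0.83). Tgfbr2, the type II receptor of TGF-beta (ENSMUSG00000032440, chromosome 9, 115913361 to 116004800, minus strand), had 570.3, 483, 252, 321 and 353 CPM in OSM mice 1, 2, 5, 6 and 9. In PBS mice the level was 179 to 484 CPM with a median of 365 CPM. Its log2 difference was 0.15 (SE 0.16, interval -0.20 to 0.50), with overlapping groups in every litter.

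Smad6, an inhibitory Smad that acts chiefly on BMP receptors (ENSMUSG00000036867, chromosome 9, 63860341 to 63929793, minus strand), had the largest difference in relation to its error. The OSM mice had 36.0 and 27.4 CPM in litter 1, 7.92 and 8.73 CPM in litter 2 and 12.2 CPM in litter 3. The PBS mice had 38.6 and 35.5 CPM in litter 1, 12.02 and 18.2 CPM in litter 2 and 48.3 and 22.1 CPM in litter 3. Every OSM mouse was below the PBS mice of its litter in litters 2 and 3, and OSM mouse 1 lay between both PBS mice of litter 1. The log2 difference was -0.77 (SE 0.30, interval -1.42 to -0.12), and it was -0.23, -0.80 and -1.39 in litters 1, 2 and 3. The unadjusted p was 0.0243 and the adjusted p 1.00, so Smad6 did not pass. Of all genes, 2.18% were lower after OSM with an unadjusted p under 0.05. The difference was below 0 in all 26 alternative settings, with an unadjusted p under 0.05 in 18 of 26, and in 8 of 11 of those that left out 1 mouse. Without OSM mouse 9 it was -0.53 (unadjusted p 0.111). Without a litter term it was -0.66 in edgeR (unadjusted p 0.178) and -0.66 in DESeq2 (unadjusted p 0.164). All settings draw on the same 11 mice, and in no setting was the adjusted p under 0.291.

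Smad7, an inhibitory Smad of both branches (ENSMUSG00000025880, chromosome 18, 75500374 to 75529006, plus strand), had 44.0, 60.4, 25.3, 29.3 and 21.7 CPM in OSM mice 1, 2, 5, 6 and 9. Levels in PBS mice were 24.1 to 65.5 CPM with a median of 37.0 CPM. The log2 difference was -0.23 (SE 0.20, interval -0.66 to 0.21), and it was -0.08, -0.02 and -0.76 in litters 1, 2 and 3. Without OSM mouse 9, the only OSM mouse of litter 3, it was -0.05. Smad6 and Smad7 were the only 2 of the 10 genes with a mean below that of PBS in all 3 litters, which held for 12.5% of all genes.

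**Figure D2:**
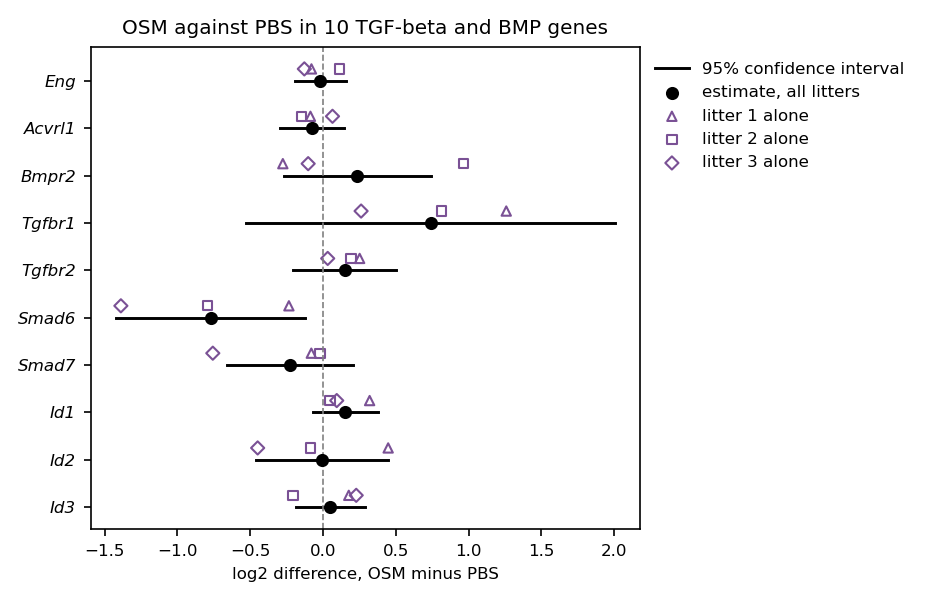
Log2 difference of OSM minus PBS for the 10 genes. Filled points and lines give the estimate and 95% confidence interval over all litters, and open symbols give the difference of mean log2 CPM in each litter. The interval of Smad6 (-1.42 to -0.12) lies below 0 before adjustment, and the other 9 intervals include 0.

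None of the Id genes, targets of the BMP branch, passed the test between OSM and PBS. Id1 (ENSMUSG00000042745, chromosome 2, 152566218 to 152579544, plus strand) had 329, 332, 258, 290 and 262 CPM in OSM mice 1, 2, 5, 6 and 9. The PBS mice ranged from 224 to 313 CPM with a median of 252 CPM. Both OSM mice of litter 1 were above its PBS mice and OSM mouse 9 was above those of litter 3, but litter 2 overlapped. The log2 difference was 0.15 (SE 0.10, interval -0.07 to 0.38). Id3 (ENSMUSG00000007872, chromosome 4, 135870808 to 135873066, plus strand) had 746, 1027, 812, 869 and 925 CPM in these OSM mice. The PBS mice ranged from 700 to 1003 CPM with a median of 823 CPM. Its log2 difference was 0.05 (SE 0.11, interval -0.19 to 0.29), an unadjusted interval of 0.878 to 1.22 as a ratio of OSM to PBS. Id2 (ENSMUSG00000020644, chromosome 12, 25143798 to 25147282, minus strand), which other pathways also control, had 80.9, 98.4, 58.5, 57.4 and 54.2 CPM in the OSM mice and 46.1 to 92.4 CPM in the PBS mice, with a median of 69.1 CPM. The log2 difference of Id2 was -0.01 (SE 0.21, interval -0.46 to 0.45), with values of 0.45, -0.09 and -0.45 in litters 1, 2 and 3. In the GENCODE release used here, the exons of Id2 share 1262 bases with other annotated genes, and those of Eng share 860 bases with Fpgs on the other strand. Where reads are counted without strand, those in such stretches cannot be assigned to 1 gene.

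No marker gene of another cell type was called between OSM and PBS. All 10 mural cell markers were lower after OSM, with 1 at an unadjusted p under 0.05 (4.17% of all genes in either direction), and their sum ranged from 410 to 832 CPM in the OSM mice (median 489) and from 311 to 1725 CPM in the PBS mice (median 930.3). All 5 erythroid markers that passed the filter were higher after OSM with an unadjusted p under 0.05. With the mural markers as a covariate, the log2 difference of Smad6 was -0.94 (SE 0.33). With the rod markers as a covariate it was -0.79 (SE 0.29), and with the endothelial markers -0.79 (SE 0.31). With the immediate early genes it was -0.78 (SE 0.35), and the unadjusted p was then 0.0507. With the mural covariate, the receptors had -0.02 (Eng), -0.19 (Acvrl1), 0.42 (Bmpr2), 0.67 (Tgfbr1) and 0.04 (Tgfbr2). Smad7 then had -0.06, Id1 0.16, Id2 -0.11 and Id3 -0.0068. The part of the erythroid transcripts in these values was not tested.

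**Figure D3:**
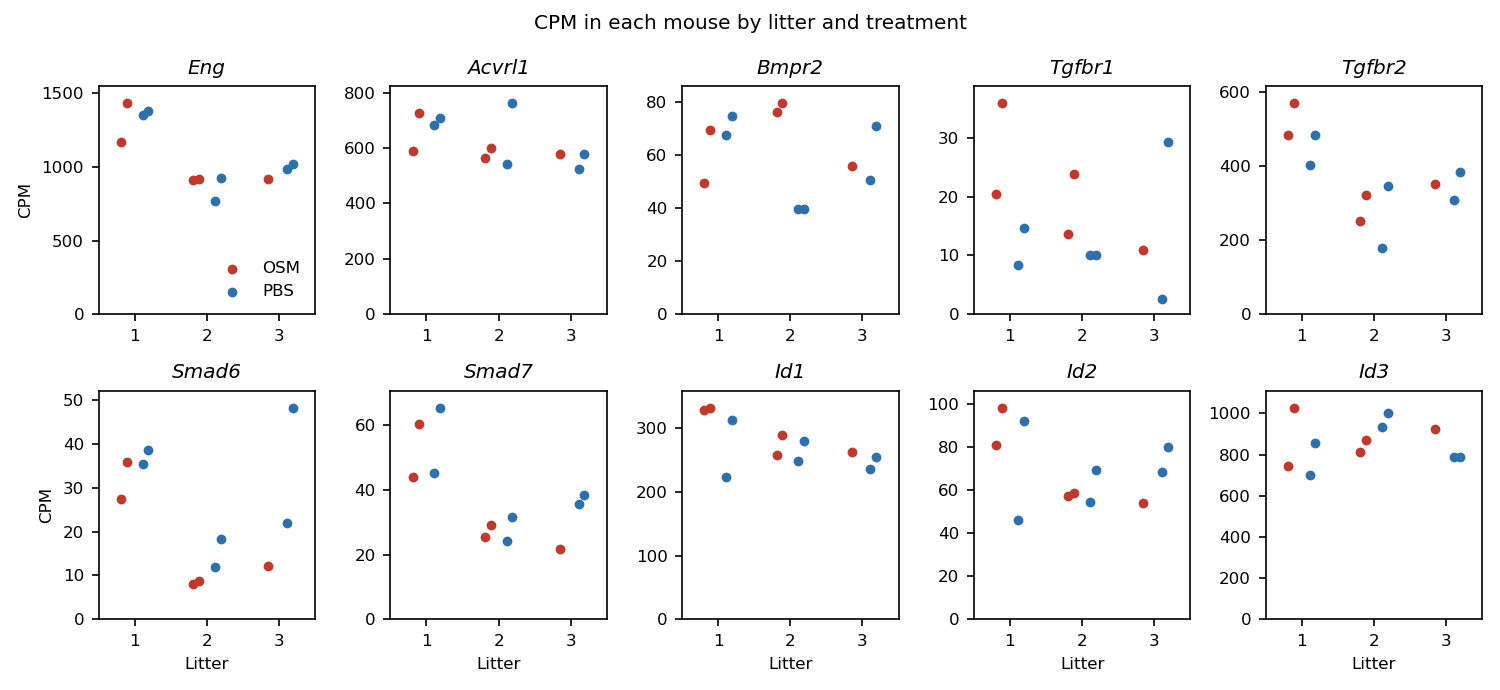
CPM of the 10 genes in each mouse (linear axes from 0), by litter, with OSM mice in red and PBS mice in blue. Each point is 1 mouse. Eng, Tgfbr2 and Smad7 lie higher in every mouse of litter 1 than in any mouse of litters 2 and 3, whereas OSM and PBS overlap in every panel.

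The litters, each an OIR experiment of its own, were compared next. In the test of both litter terms together, 4 of 10 genes had an unadjusted p under 0.05, against 11.4% of all genes tested, and all 4 were highest in litter 1, against 5.5% of all genes. These were Eng, Tgfbr2, Smad6 and Smad7. None of the 10 was called after adjustment, and 14 of all genes (0.102%) were. The 10 endothelial markers had a like share, with 5 at an unadjusted p under 0.05 between litters and 0 called. Every mouse of litter 1 was above every other mouse for 3 of 10 genes (Eng, Tgfbr2 and Smad7), against 1.83% of all genes.

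Eng had 1167 to 1434 CPM in litter 1, 769 to 927 CPM in litter 2 and 917 to 1020 CPM in litter 3. Its log2 difference was 0.60 (SE 0.09) between litters 1 and 2 and 0.46 (SE 0.10) between litters 1 and 3, with an unadjusted p of 1.18e-04 and an adjusted p of 0.0675 in edgeR's test of the litters. Tgfbr2 had 402 to 570.3 CPM in litter 1, 179 to 346 CPM in litter 2 and 310 to 384 CPM in litter 3, with a log2 difference of 0.82 (SE 0.19) between litters 1 and 2 (adjusted p 0.168). Smad7 had 44.0 to 65.5 CPM in litter 1, 24.1 to 31.6 CPM in litter 2 and 21.7 to 38.3 CPM in litter 3, with a log2 difference of 0.96 (SE 0.22) between litters 1 and 2 (adjusted p 0.151). Litter 1 stood above both other litters for these 3 genes. The log2 difference of litter 2 minus litter 3 was -0.14 (SE 0.10) for Eng, -0.37 (SE 0.20) for Tgfbr2 and -0.15 (SE 0.25) for Smad7. For Tgfbr2 it was near in size to that between litters 1 and 3 (0.45, SE 0.20). Smad6 had 27.4 to 38.6 CPM in litter 1, 7.92 to 18.2 CPM in litter 2 and 12.2 to 48.3 CPM in litter 3, with a log2 difference of 1.63 (SE 0.34) between litters 1 and 2 (adjusted p 0.137). Here litter 3 overlapped both others. The type I receptor Acvrl1 and the targets Id1 and Id3 had adjusted p of 0.606, 0.730 and 0.932, with largest differences of 0.28, 0.22 and 0.12 between any litters in absolute value.

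The calls for litter depended on the tool and the filter. DESeq2's likelihood ratio test called all 4 genes, with adjusted p from 4.09e-07 for Eng to 0.00986 for Tgfbr2, but it called 988 genes in all (6.88%). Without a filter on low counts, edgeR also called all 4, with 625 genes in all (2.16%). With at least 10 counts in every mouse, Eng was called (adjusted p 0.0219) and the other 3 were not. That filter also called more genes in all than the main test, as given in the last section. In the PBS mice alone, the largest log2 difference of Eng between litters was 0.68 (unadjusted p 0.00202, adjusted p 0.383).

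The marker lists were compared between litters in the same way, where 11.4% of all genes had an unadjusted p under 0.05. The 10 endothelial markers summed to 16740 to 18195 CPM in litter 1, 12822 to 16134 CPM in litter 2 and 14514 to 15888 CPM in litter 3. Of these endothelial markers, 5 had an unadjusted p under 0.05 between litters. The 10 immediate early genes, which respond to stress and dissociation of tissue within minutes, summed to 2595 to 3192 CPM in litter 1, 1623 to 2200 CPM in litter 2 and 1832 to 1922 CPM in litter 3. All 10 had an unadjusted p under 0.05 between litters, and Dusp1 was called (adjusted p 0.0422). The 5 tested erythroid markers also had an unadjusted p under 0.05, and their list summed to 138 to 414 CPM in litter 1, 548 to 1129 CPM in litter 2 and 115 to 620 CPM in litter 3. Of the 7 rod markers, 1 had an unadjusted p under 0.05, which is near the share of all genes. The rod list summed to 338 to 449.5 CPM in litter 1, 551 to 4358 CPM in litter 2 and 158 to 1206 CPM in litter 3. With the immediate early genes as a covariate, the largest log2 difference between litters was 0.12 for Eng (unadjusted p 0.762), 0.49 for Tgfbr2 (0.353), 1.65 for Smad6 (0.0733) and 1.32 for Smad7 (0.246), and 0 genes were called in all. For Acvrl1 it went from 0.28 (unadjusted p 0.122) without the covariate to 0.62 (unadjusted p 0.0492) with it. Litter and the immediate early sum were nearly the same contrast, so their parts cannot be told apart in these mice. With the endothelial markers as a covariate, the corresponding values were 0.31 for Eng (unadjusted p 0.105), 0.22 for Tgfbr2 (0.487), 1.39 for Smad6 (0.0775) and 1.14 for Smad7 (0.0634). As a ratio to the endothelial sum, Eng was at -3.70 ± 0.13 in litter 1, -4.04 ± 0.08 in litter 2 and -3.95 ± 0.15 in litter 3 (log2, SD over mice), and none of the 10 genes had all mice of litter 1 above all others on this scale.

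**Figure D4:**
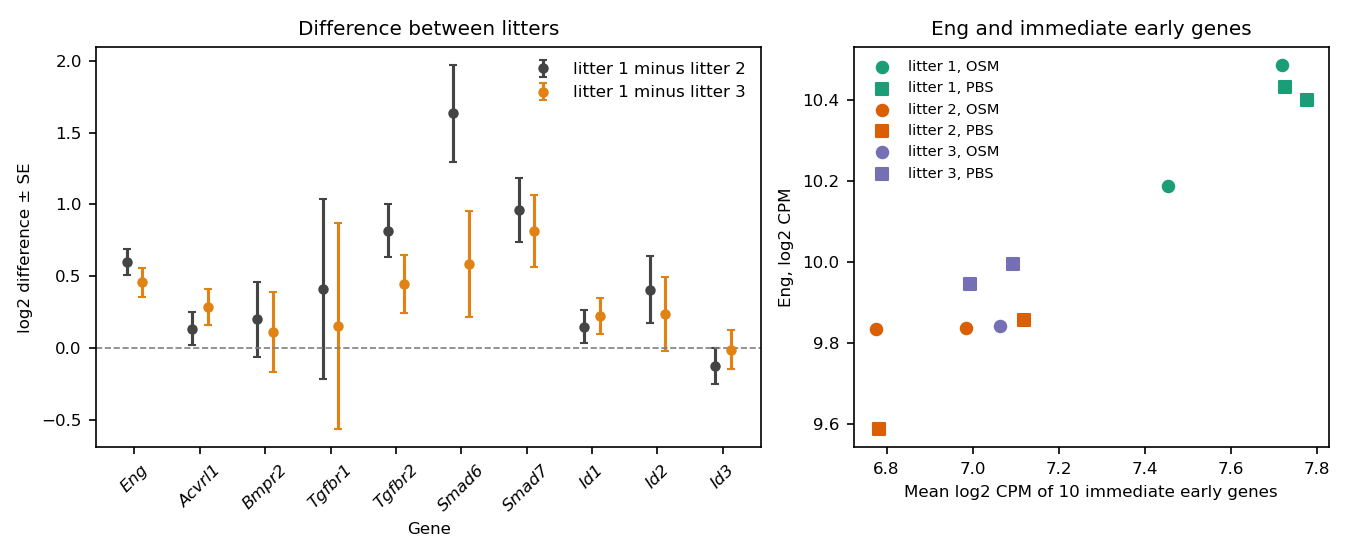
Left, log2 difference (points, with SE bars) of litter 1 minus litter 2 and of litter 1 minus litter 3 for the 10 genes. Right, log2 CPM of Eng against the mean log2 CPM of 10 immediate early genes in each mouse, with colours for litters and shapes for treatments. All genes but Id3 lie above 0 in both contrasts, among them Eng, Tgfbr2, Smad6 and Smad7, and the 4 mice of litter 1 sit apart at the upper right.

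The rest of the pathway was followed in a list of 53 further genes, of which 42 passed the filter on low counts. After OSM, 18 of the 42 were higher and 24 were lower, where 48.4% of all genes were higher. Of the 42, 0 were called, and 0 had an unadjusted p under 0.05, against 4.17% of all genes. Their median log2 difference was -0.02, against -0.01 over all genes tested. DESeq2 called 1 of them, Bmper, an extracellular BMP regulator that did not pass the filter and had reads in 1 of 11 mice, a PBS mouse with 112 reads.

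Of 11 ligands, 7 passed the filter, with 2 higher and 5 lower after OSM. Tgfb1 was the highest at 84.7 ± 16.9 TPM (SD, n = 11), with a log2 difference of 0.17 (SE 0.13). Tgfb2 had 30.5 ± 7.13 TPM and a difference of -0.28 (SE 0.17), and Bmp6 had 12.9 ± 10.9 TPM and a difference of -1.29 (SE 1.03). Gdf2 and Bmp10, which encode the circulating ligands BMP9 and BMP10, had 1 read each in 1 of 11 mice. Their receptor Acvrl1 and co-receptor Eng, by contrast, had at least 16541 and 24879 reads in every mouse. Of 7 other receptors, 6 passed, with 3 higher and 3 lower. Acvr1, the type I receptor ALK2, had 26.7 ± 9.24 TPM and a difference of 0.37 (SE 0.29), Acvr2a had 8.78 ± 3.60 TPM and -0.03 (SE 0.37), and the co-receptor Tgfbr3 had 7.22 ± 2.82 TPM and 0.63 (SE 0.40).

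Of 6 signaling Smads, 5 passed, with 4 higher and 1 lower. Smad1, a transducer of the BMP branch, was the highest at 139 ± 21.8 TPM, with a difference of -0.02 (SE 0.12). The common partner Smad4 had 127 ± 18.2 TPM and 0.05 (SE 0.08), and Smad5 had 52.5 ± 11.9 TPM and 0.29 (SE 0.18). Smad9 had at most 3 reads in any mouse. Of 19 modulators, 14 passed, with 7 higher and 7 lower. Fkbp1a, which encodes the FKBP12 protein that binds type I receptors, had 854 ± 59.3 TPM and a difference of 0.10 (SE 0.08). Ltbp4, a latent TGF-beta binding protein, had 596 ± 238 TPM and -0.04 (SE 0.19), and the pseudoreceptor Bambi had 391 ± 71.9 TPM and 0.16 (SE 0.16). The BMP antagonist Grem1 was at 0 reads in all 11 mice.

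All 10 other target genes passed, with 2 higher and 8 lower after OSM, where 48.4% of all genes were higher. Ccn2, which encodes a matricellular protein, had 520 ± 348 TPM and a log2 difference of -0.19 (SE 0.22). Tgfbi had 249 ± 66.2 TPM and 0.03 (SE 0.17), and Edn1, the gene of endothelin-1, had 192 ± 95.3 TPM and 0.11 (SE 0.26). Between litters, 10 of the 42 genes had an unadjusted p under 0.05, against 11.4% of all genes. Ccn2 was the only 1 of the 42 that was called, with mean levels of 640, 195 and 238 CPM in litters 1, 2 and 3 (adjusted p 0.0448), and it was not called with DESeq2's size factors in edgeR. Edn1 had an unadjusted p of 0.00239 and an adjusted p of 0.151 between litters. Ccn2 and Edn1 are also known to respond to mechanical and stress signals, and the part of such signals in these values was not tested.

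Across the 11 mice, 45 pairs of the 10 genes were compared by a permutation test of Pearson's r on log2 CPM. The adjusted p was under 0.05 for 2 pairs, Eng with Smad7 and Eng with Tgfbr2, and for 0 pairs by Spearman's rho. Because litter 1 stood apart for all 3 genes, a pooled r is not given. After the litter means were removed, r was 0.25 for Eng with Smad7 and 0.28 for Eng with Tgfbr2, and no litter held enough mice for a value of its own.

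The genes whose pattern over the 11 mice was most like that of a receptor, an inhibitory Smad and a target were sought after litter and treatment means were removed from log2 CPM. For Eng they were E2f5 (r = 0.97), Lrrc40 (0.96) and Gpkow (0.95). For Smad6 they were 9630013A20Rik (0.94), Pacsin2 (0.93) and Gm12059 (0.93), of which 9630013A20Rik and Gm12059 had means of 0.596 and 1.07 CPM. For Id1 they were Sin3a (0.96), Sdhaf1 (0.95) and Amigo2 (0.95), of which Amigo2 had a mean of 2.38 CPM and a lowest count of 0. These are the highest of 13742 values over 11 mice, given as a description.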

How the data were processed

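RNA of sorted retinal vascular endothelial cells from 11 mice (5 OSM, 6 PBS) was sequenced as single reads after poly(A) priming and PCR amplification, without molecular identifiers. The authors aligned reads with STAR to GRCm39 and assigned them to GENCODE genes by featureCounts. The deposited values are raw counts, whole numbers that were not normalized, of 55359 genes in every mouse. By default, featureCounts leaves out reads that overlap several genes. Of the gene IDs, 54749 matched GENCODE vM39, which gave symbols, lengths and positions, and 610 did not. The authors counted reads with an earlier GENCODE release, so exon lengths and overlaps may differ from those used in counting. The headers inside the files of mice 10 and 11 name other mouse numbers, so samples were taken from GEO's record. Total counts were 26697990 to 56033479 per mouse.

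Treatment was taken from the labels, and litter was a term in every model except the alternatives that left it out. Counts were tested with edgeR 4.0.16 in R 4.3.3: TMM, filterByExpr by treatment group (count minimum 10), glmQLFit with robust estimation and glmQLFTest, with Benjamini-Hochberg adjustment and a threshold of 0.05. Treatment, litter (both terms together) and their interaction were tested. Log2 CPM had an offset of 0.5. TPM used the union of exons. Correlations used 100000 permutations, two-sided. Motifs were searched on both strands in the 250 bases before canonical starts. The tests were tried on simulated data.

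The members and lists were chosen with earlier results of these data known. Named are the 10 members, the 3 genes of highest mean TPM in each role, called genes and genes at 0 reads in all mice. Bmper, Gdf2, Bmp10 and Smad9 were named after their values were seen. Alternatives were DESeq2 1.42.0 with and without litter, its size factors in edgeR, other filters, no robust estimation, no litter or treatment term, marker lists as covariates, PBS mice alone, and leaving out each mouse or litter. The filter on the design matrix, the endothelial covariate, the covariates and the omission of litter 1 in the litter test, and the canonical length were added after the data were seen.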

Additional observations from a re-analysis of the deposited data

Results flagged for a closer look

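Acvrl1 was at 728 CPM in OSM mouse 2, which stood apart from the other 4 OSM mice by Dixon's test (gap to the nearest divided by the range, 0.788). The other OSM mice had 565 to 599 CPM. This test marks about 1 in 20 groups by chance, and the PBS mice reached 763 CPM. The PBS mice of the same litter as OSM mouse 2 had 708 and 682 CPM, and the other OSM mouse of that litter had 588 CPM.

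The OSM difference of Id3 went in opposite directions in litters 2 and 3. In litter 2 both OSM mice were below both PBS mice (log2 difference -0.21), and in litter 3 the OSM mouse was above both PBS mice (0.23). The interaction test of edgeR gave an unadjusted p of 0.181 (adjusted p 0.794), so the difference between litters did not pass.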

How the results depend on the processing

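No member was called between OSM and PBS under any of the 26 alternatives, and Tgfbr1, Tgfbr2, Smad6, Smad7 and Id1 kept the sign of their difference in each. Over all genes, the number called between OSM and PBS (0) was 65 without a filter, 168 with DESeq2 and 88 with DESeq2 without litter, and DESeq2 called 1 other pathway gene. It was 0 without each mouse in turn.

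The log2 difference of Eng, Acvrl1, Bmpr2, Id2 and Id3 changed sign under some alternatives. Without each mouse in turn it was -0.071 to 0.032 for Eng, -0.13 to 0.012 for Acvrl1, -0.18 to 0.14 for Id2 and -0.036 to 0.11 for Id3. It was 0.11 to 0.39 for Bmpr2, 0.52 to 1.30 for Tgfbr1, 0.037 (without PBS mouse 7) to 0.31 (without PBS mouse 8) for Tgfbr2, -0.91 to -0.53 for Smad6, -0.32 to -0.050 for Smad7 and 0.071 (without PBS mouse 4) to 0.21 for Id1. With the immediate early covariate it was 0.036 for Eng, 0.016 for Acvrl1 and 0.046 for Id2, and with the mural covariate -0.0068 for Id3. Without a litter term Id2 was at 0.028 (edgeR) and 0.023 (DESeq2). Without litter 1, Eng was at 0.012 and Id3 at -0.031, without litter 2, Bmpr2 was at -0.20 and Id2 at 0.054, and without litter 3, Eng was at 0.025, Id2 at 0.14 and Id3 at -0.0022.

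Between litters, 14 genes, 0 members and 1 other pathway gene were called. The numbers were 625, 4 and 6 without a filter, 988, 4 and 6 with DESeq2, 109 and 1 (Eng) for genes and members with at least 10 counts in every mouse, and 26 and 1 (Eng) without the treatment term. The other pathway gene was lost (0) with DESeq2's size factors. With the filter on the design matrix 3 genes and 0 pathway genes were called, and with the rod covariate 1 and 0. Both were 0 with the immediate early or the endothelial covariate, in the PBS mice alone and without litter 1. Without each mouse in turn, 0 to 69 genes, 0 to 1 members and 0 to 2 pathway genes were called. The 69 genes and 1 member (Eng) came without PBS mouse 8. The OSM effect between litters called 305 genes and 2 pathway genes without a filter, and 0 to 1 genes without each mouse. Pairs of members with an adjusted p under 0.05 numbered 0 to 5 without each mouse, with 5 without PBS mouse 4. With canonical lengths, mean TPM was 701 for Acvrl1, 107 for Tgfbr2, 20.8 for Smad7, 579 for Id1 and 1630 for Id3. The causes were not tested. No paired analysis was possible because mouse numbers are not shared between the groups; litter, which both groups share, is a term instead.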
